A study of Mus musculus with 12 samples.

Results

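Signals of 9 genes for myeloid C-type lectin receptors were compared between wild-type and ENT3-deficient mouse liver. The genes are Clec4a1, Clec4a2, Clec4a3, Clec4d, Clec4e, Clec4n, Clec7a, Clec12a and Cd207, out of 30718 genes with an array feature of their own and 65956 transcript features in all. They were named as a family, and each is represented by its feature of highest mean signal, which for each of the 9 was its only feature. The family was chosen on the measured knockout minus wild-type differences of these same livers, so those values are given below as a description and carry no test.

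C-type lectin receptors are transmembrane proteins with a carbohydrate-recognition-type fold that sit on macrophages, monocytes, neutrophils and dendritic cells. Some of them recognise microbial sugars, glycolipids or products of dead cells and signal for activation, either through the adaptor chain FcRγ, encoded by Fcer1g, or through a tyrosine motif of their own that recruits the kinase SYK and the CARD9 complex. Others carry an inhibitory tyrosine motif that recruits phosphatases and dampens activation. In liver such receptors are known from Kupffer cells, the resident macrophages, and from incoming myeloid cells.

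The livers came from 12 C57BL6/J mice aged 12 weeks, with 1 array per mouse and the total RNA of snap-frozen tissue. Of these, 6 mice were ENT3 +/+ (wild type, WT) and 6 were ENT3 -/- (knockout, KO), and each genotype had 3 mice with the letter M and 3 with the letter F in the title, read as male and female. ENT3 is a nucleoside transporter of lysosomal and mitochondrial membranes, encoded by Slc29a3. The sources used here do not give the allele, whether the deletion covers every tissue, or the litter and housing, so the spread is that between these mice. Mice are named by genotype, sex and the animal number of the title.

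The labels and arrays were checked first. Slc29a3 lay between 4.82 and 5.29 in WT and between 4.10 and 4.19 in KO on the deposited log2 scale, a difference of -0.94 ± 0.07 (SE, adjusted p = 0.000324 with limma), and Xist and Uty separated M from F without overlap. The hepatocyte genes Alb, Apoa1 and Ttr sat at the shared ceiling of 19.93 on each of the 12 arrays. The 95th percentile of the 5222 negative controls lay between 6.202 and 6.83, and a signal below it on its own array is called not well above background. Slc29a3 was below that percentile on each of the 12 arrays, WT included, so the size of its difference is not exact. That percentile was higher in KO by 0.36 and the mean of the 4 poly-A spikes, control RNAs added before labelling, was lower in KO by 0.86 (difference -0.86), each at an exact permutation p = 0.005, the smallest that 400 arrangements allow (0.01 after Benjamini-Hochberg adjustment over 6 array measures). By the same test the medians of negative controls (0.14), positive controls (-0.39) and transcript features (0.07) also differed (permutation adjusted p = 0.01, 0.015 and 0.018). The mean of the hybridisation spikes did not (-0.09, permutation adjusted p = 0.395). Of the KO mice, male 19 had a poly-A level of 6.06, inside the WT range of 5.98 to 6.81. Female 40 stood above the other KO mice for 8 of the 9 genes, and results that rest on it are given with and without it.

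The largest differences were in Clec4a1 and Clec4a3, neighbouring genes of the dendritic cell immunoreceptor (Dcir) subfamily. Clec4a1 read 5.60, 4.65 and 4.83 in WT males 17, 23 and 33 and 5.05, 4.45 and 5.31 in WT females 25, 27 and 38. In KO it read 9.99, 6.82 and 7.93 in males 18, 19 and 39 and 10.002, 11.61 and 9.67 in females 13, 40 and 69. Every KO liver was above every WT liver, with male 19 lowest and female 40 highest. The KO mean was 9.34 ± 1.70 (SD, n = 6) against 4.98 ± 0.43 (SD, n = 6), a difference of 4.35 ± 0.53 (SE). No WT liver was well above background, so the fold is a lower bound, taken against the 95th percentile of the negative controls on each WT array, and by it Clec4a1 was at least 8.09-fold higher in KO. In bulk tissue, more cells of a type and more RNA per cell cannot be told apart.

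Clec4a3 read 5.65, 5.25 and 5.22 in WT males and 5.08, 4.97 and 5.97 in WT females. In KO males it read 10.72, 7.26 and 8.20, and in KO females 10.45, 11.29 and 10.70. The order within the KO males was that of Clec4a1, with male 18 near the females and males 19 and 39 lower. The KO mean of 9.77 ± 1.63 (SD, n = 6) exceeded the WT mean of 5.36 ± 0.38 by 4.41 ± 0.50 (SE), at least 10.9-fold by the same bound. Within males the bound was 5.19-fold and within females 22.99-fold. Probe sequences were not used here, so signal that these related neighbours may share cannot be told apart.

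Clec4a2, the Dcir gene usually taken as the mouse counterpart of human CLEC4A and a carrier of an inhibitory motif, differed by less. Its WT livers read 4.20, 4.33 and 4.06 in males and 4.32, 4.08 and 4.07 in females, a narrow range. KO males read 6.40, 5.29 and 5.66 and KO females 6.25, 7.16 and 6.60. All KO livers were above all WT livers, with a difference of 2.05 ± 0.20 (SE), but only 1 KO liver, female 40, was well above background. No fold is given, because the other KO livers were not well above background either.

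Promoters of 3 genes with the largest differences and of 1 with a small difference are shown side by side. The RefSeq promoter table of build GRCm38.p6 held 8 of the 9 genes, without Clec4n. The windows are the 250 bases before the annotated start of each gene on its own strand, 5′ to 3′. Capitals mark AGGAAG or its complement CTTCCT, the core bound by Ets-family factors, which include the myeloid factor PU.1.
Clec4a1, chr6:122921598-122921847, plus strand: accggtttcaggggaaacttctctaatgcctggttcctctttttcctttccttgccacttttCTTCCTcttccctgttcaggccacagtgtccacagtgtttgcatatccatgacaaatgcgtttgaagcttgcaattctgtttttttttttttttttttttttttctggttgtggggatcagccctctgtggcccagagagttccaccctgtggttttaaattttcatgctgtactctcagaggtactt
Clec4a3, downstream of its 2 listed starts, chr6:122952394-122952643, plus strand: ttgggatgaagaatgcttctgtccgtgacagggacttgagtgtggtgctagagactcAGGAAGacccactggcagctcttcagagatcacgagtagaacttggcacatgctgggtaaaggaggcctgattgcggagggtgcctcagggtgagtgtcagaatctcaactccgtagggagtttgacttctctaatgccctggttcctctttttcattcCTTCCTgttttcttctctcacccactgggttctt
Cd207, chr6:83677858-83678107, minus strand: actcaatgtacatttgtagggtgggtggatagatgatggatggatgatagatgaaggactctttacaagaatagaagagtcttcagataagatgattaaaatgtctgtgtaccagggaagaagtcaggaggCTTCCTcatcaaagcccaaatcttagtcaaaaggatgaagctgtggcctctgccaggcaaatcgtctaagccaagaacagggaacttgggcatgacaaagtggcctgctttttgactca
Clec4e, chr6:123289872-123290121, minus strand: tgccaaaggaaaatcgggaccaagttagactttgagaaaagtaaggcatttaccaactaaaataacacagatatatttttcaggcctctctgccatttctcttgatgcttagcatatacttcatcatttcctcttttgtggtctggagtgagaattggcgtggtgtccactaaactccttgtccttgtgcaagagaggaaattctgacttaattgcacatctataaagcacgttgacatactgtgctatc

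The Clec4a1 and Clec4a3 windows shared a run of 17 bases, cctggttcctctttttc, starting at -222 in Clec4a1 and at -55 in Clec4a3, while the longest run between any other pair of the family was 10 bases. The Ets core lay at -188 in Clec4a1, at -193 and -34 in Clec4a3 and at -119 in Cd207, and Clec4e had none in this window. Among the genes not shown, it lay at -73 and -60 in Clec12a and at -241 in Clec4d, and Clec4a2 and Clec7a had none. Of these, Clec4d differed by 0.23 between KO and WT and Clec4a2 by 2.05, so the core did not go with the size of the difference throughout. Searched on both strands over 300 bases (250 before and 50 after the start), AGGAAG occurred in 5 of the 8 genes, against 38.4% of the 27025 genes in the table. The longer PU.1 form GAGGAAGT, which contains it, occurred in 0 of the 8 and in 3.69% of all genes. The C/EBP letters TTGCNNAA occurred in 2 genes (12.2% of all), the AP-1 letters TGANTCA in 3 (8.97%) and the NF-kB letters GGGNNNNNCC in 1 (53.5%). A match is a string of letters in a window and not evidence of binding.

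Cd207 encodes langerin, the endocytic receptor that defines Langerhans cells of the skin and is found on some dendritic cells elsewhere. It lies on chromosome 6 like the other 8 genes but outside their clusters. WT livers read 5.48, 5.52 and 5.55 in males and 5.33, 4.94 and 5.54 in females. KO males read 8.58, 8.07 and 8.31, and KO females 9.48, 10.65 and 9.19. The groups did not overlap, the 3 KO females were above the 3 KO males, and the gap of 2.52 between the lowest KO and the highest WT liver was the widest of the family. The difference was 3.66 ± 0.23 (SE), at least 6.62-fold. Of the 14 dendritic cell markers, 12 were not well above background on any array, Xcr1 and Zbtb46 among them (named after their values were seen), and the mean level of the list was 4.66 to 4.85 in WT and 4.76 to 5.48 in KO. The part of such cells in the Cd207 signal was not tested.

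Clec12a is an inhibitory receptor of granulocytes and monocytes that senses uric acid crystals. It read 5.45, 5.52 and 5.26 in WT males and 5.83, 5.58 and 5.92 in WT females. KO males read 7.66, 6.16 and 6.45 and KO females 7.37, 9.43 and 7.48. Groups did not overlap, although males 19 and 39 were within 1 log2 unit of the highest WT liver and not well above background. The difference was 1.83 ± 0.37 (SE). Against the WT percentile the KO mean was 2.15-fold higher, and 1.32-fold higher within males. Because only 4 of 6 KO livers were well above background, no minimum fold is read from these values.

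Among the activating receptors, Clec4n encodes dectin-2, a receptor for fungal mannans that pairs with FcRγ. It read 5.55, 5.23 and 5.09 in WT males and 5.49, 5.04 and 5.22 in WT females. KO males read 7.42, 6.00 and 5.78 and KO females 7.19, 7.80 and 6.23. The lowest KO liver was 0.23 above the highest WT liver, and 3 of 6 KO livers were well above background. The difference was 1.47 ± 0.32 (SE). Against the WT percentile the KO mean was 1.33-fold higher, but the other KO livers were not well above background. The percentile was itself 0.36 log2 units higher in KO, so no minimum fold is read from this value.

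Clec7a encodes dectin-1, the receptor for beta-glucan, which signals through its own tyrosine motif. It read 6.52, 5.80 and 5.71 in WT males, 6.202, 6.16 and 7.11 in WT females, 6.01, 5.53 and 6.10 in KO males and 6.14, 9.58 and 6.19 in KO females. Female 40 alone stood apart, and the other 5 KO livers lay within or below the WT range. The difference was 0.34 ± 0.55 (SE), and without female 40 it was -0.23.

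Clec4e and Clec4d encode Mincle and MCL, partners that recognise mycobacterial glycolipid through FcRγ, Mincle being known as inducible in activated macrophages. Neither was well above background on any of the 12 arrays. Clec4e lay between 3.63 and 3.82 in WT and between 3.76 and 4.39 in KO, and Clec4d between 3.64 and 4.15 in WT and between 3.78 and 4.36 in KO. WT and KO overlapped for both genes, and the differences of 0.29 ± 0.07 and 0.23 ± 0.11 (SE) are those of signals below the background threshold, from which no fold is given.

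**Figure D1:**
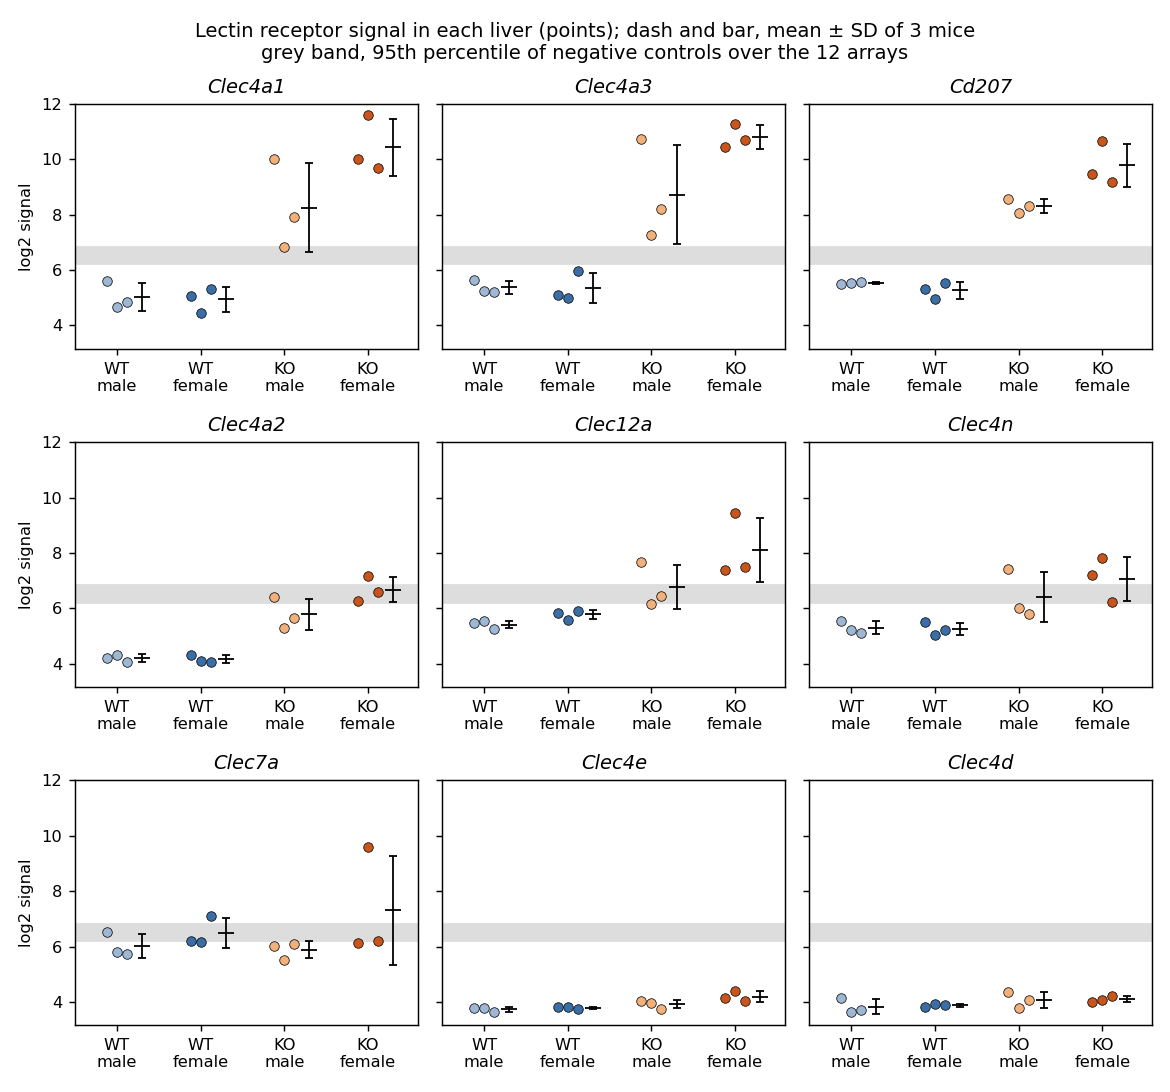
Log2 signal of each of the 9 lectin receptor genes in each liver (points, 3 mice per group), with mean ± SD beside them; the grey band spans the 95th percentile of the negative controls over the 12 arrays, 6.202 to 6.83. Clec4a1, Clec4a3 and Cd207 exceed the percentile of their own array in all 6 KO livers, Clec7a does so in KO female 40 alone among KO livers, and Clec4e and Clec4d stay below it throughout.

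Across the family, every KO liver was above every WT liver for 6 of 9 genes, against 2.34% of all genes. Within males this held for 6 of 9 (10.8% of all genes) and within females for 8 of 9 (17.8%). The mean was higher in KO for 9 of 9, against 58.9% of all genes. The rule chose the family on this contrast, so nothing is read from these shares. The median difference over the 9 genes was 1.83, and 0.03 over all genes. The median was 1.497 without female 40. With signals raised to the negative-control percentile it fell to 0.74, and Clec4a2 then differed by 0.43 and Clec4n by 0.74. That percentile was itself 0.36 higher in KO, and Clec4d and Clec4e, with no signal above it, differed by 0.36 under this setting.

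With the poly-A level of each array as a covariate, the differences were 3.58 for Clec4a1, 3.83 for Clec4a3, 3.74 for Cd207, 1.86 for Clec4a2, 1.94 for Clec12a and 1.85 for Clec4n. Clec4d changed sign, to -0.15. Poly-A level and genotype went together across these arrays. In the same covariate fit, features passing the test for KO against WT fell from 6432 of 65956 (9.75%) to 3, and 0 genes of the lists described below passed by limma. At an unadjusted limma p below 0.05 that fit held 4 of 24 receptor signalling genes, 10 of 15 Kupffer cell markers and 7 of 13 neutrophil markers. It held 4 of 12 monocyte, 1 of 14 dendritic cell, 1 of 13 lymphoid, 3 of 11 endothelial, 3 of 8 megakaryocyte and 0 of 11 hepatocyte markers. The share of all genes at that cut was not counted, so nothing is read from these counts.

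Female against male, averaged over genotypes, is a contrast that the choice of genes did not name. It is built from the same KO values, and 8 of the 9 genes had no WT liver well above background. The values and p-values below are therefore not independent of the choice. All 9 genes had the higher mean in females (57.9% of all genes did), and 0 of 9 passed limma's adjusted threshold of 0.05, against 1.23% of all features. Cd207 was higher in females by 0.60 ± 0.23 (SE, unadjusted p = 0.024, adjusted p = 0.287), Clec12a by 0.85 ± 0.37 (unadjusted p = 0.044, adjusted p = 0.373) and Clec4e by 0.17 ± 0.07 (unadjusted p = 0.037, adjusted p = 0.349). These 3 were the genes with an unadjusted limma p below 0.05. In WT alone the direction varied between genes. Clec12a averaged 5.78 in WT females and 5.41 in WT males, without overlap, and Clec7a 6.49 and 6.01, whereas Cd207 averaged 5.27 in WT females and 5.52 in WT males and Clec4a1 4.94 and 5.03. Without KO male 18, Clec4a3 passed, with a female minus male difference of 1.52 (adjusted p = 0.0387 with limma).

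The KO minus WT differences within each sex were among the values that chose the family, so the sexes are set side by side here with no test. For Cd207 the difference was 4.51 ± 0.32 (SE) in females and 2.81 ± 0.32 in males. For Clec4a1 it was 5.49 ± 0.74 in females and 3.22 ± 0.74 in males, and for Clec4a3 5.47 ± 0.71 and 3.35 ± 0.71. The median over the 9 genes was 2.32 in females and 1.35 in males. With KO female 40 and KO male 19 both left out, a choice made after seeing the data, the medians were 1.65 in females and 1.64 in males.

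**Figure D2:**
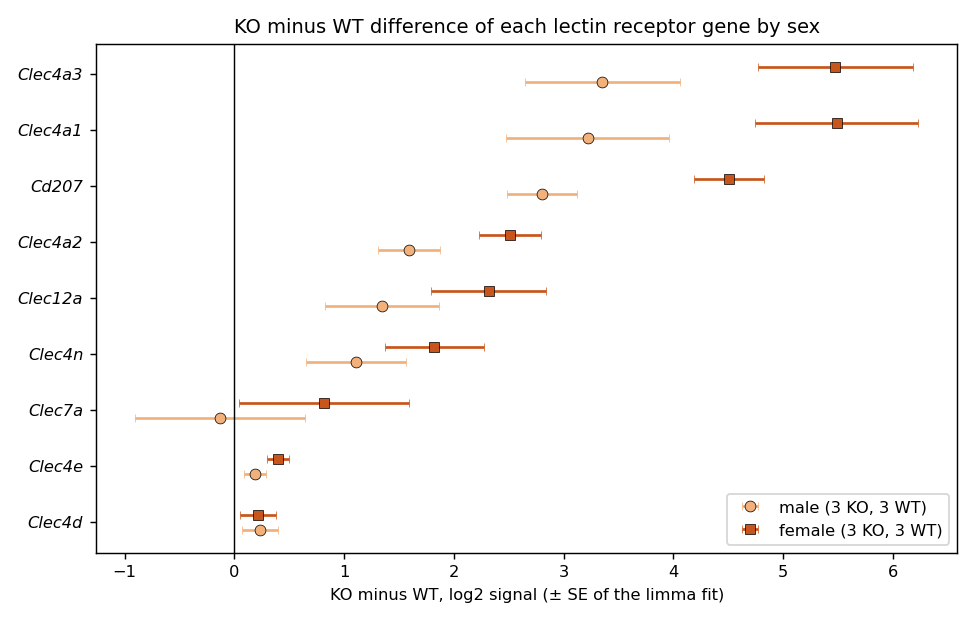
KO minus WT difference in log2 signal for each lectin receptor gene (points), with the SE of the limma fit, in males (circles, 3 KO and 3 WT) and females (squares, 3 KO and 3 WT). The female value is the larger for each gene but Clec4d, and the bars of Cd207 are the farthest apart relative to their length, at 4.51 ± 0.32 and 2.81 ± 0.32.

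The highest and the lowest KO liver were the same for most of the receptors, while the order between them varied. Female 40 was highest of the KO livers for 8 of 9 genes and male 18 for Clec4d, while male 19 was lowest for 7 and male 39 for Clec4n and Clec4e. Set against the WT mean of the same sex, Clec4a1 was higher by 6.67 in female 40 and by 1.79 in male 19. Cd207 spread less, between 2.56 in male 19 and 5.38 in female 40. Over the residuals of the 12 arrays from their 4 group means, Clec4a1 and Clec4a3 correlated at r = 0.91 (0.94 without female 40) and Clec4a1 and Clec12a at r = 0.87 (0.88). For Clec7a and Cd207, r = 0.91 fell to 0.78 without female 40, and for Clec4d and Cd207 it was 0.07. These correlations are descriptive, and the points share array and tissue makeup.

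**Figure D3:**
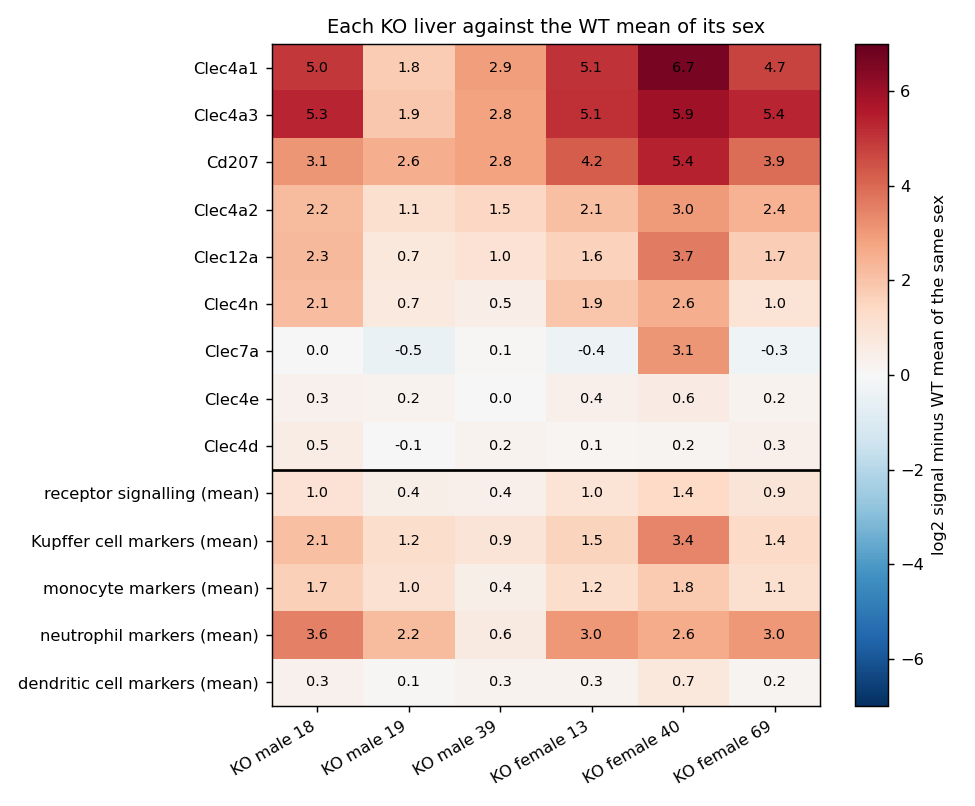
Difference of each KO liver (columns) from the WT mean of its sex, in log2 units shown by colour and number, for the 9 receptor genes and, below the line, for the mean of 5 gene lists. Female 40 has the highest values for most receptors and for the Kupffer cell list, whereas the neutrophil list is highest in male 18.

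Genes of the cells that could carry these receptors moved as well. Among 15 Kupffer cell markers, 9 rose and 2 fell (5.81% of all genes rose and 8.26% fell), with a median difference of 1.98, and each was well above background on at least 1 array. Marco, a scavenger receptor, rose by 6.27 ± 0.73 (SE, adjusted p = 0.00122 with limma), C1qc by 2.49 ± 0.33 and Spic, the factor of red pulp and iron-handling macrophages, by 1.98 ± 0.29, whereas the haemoglobin scavenger receptor Cd163 fell by 1.74 ± 0.19 (adjusted p = 0.000942 with limma). Clec4f, the C-type lectin restricted to Kupffer cells and named here after its values were seen, differed by 0.21 ± 0.41 (adjusted p = 0.819 with limma). The mean level of the list was 7.36 to 8.32 in WT and 8.57 to 11.22 in KO, highest in female 40, as for the receptors.

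For each list that follows, the shares over all genes were 5.81% higher and 8.26% lower. The neutrophil list had 9 of 13 genes higher, 0 lower and a median of 0.99, and 7 were not well above background on any array. S100a8 rose by 8.30 ± 1.02 and Retnlg by 4.58 ± 0.81. S100a8 was at most 6.57 in WT and at least 8.59 in KO. The mean level of the list was 4.13 to 4.60 in WT and 4.92 (male 39) to 7.86 (male 18) in KO, without overlap. The monocyte list had 5 of 12 genes higher, 0 lower and a median of 0.67, among them Ms4a4c by 2.30 ± 0.39 and Chil3 by 4.35 ± 0.74. Its mean level was 5.47 to 5.96 in WT and 5.95 to 7.58 in KO. Of the dendritic cell list, 2 of 14 rose, Itgax by 1.91 ± 0.27 and Clec9a by 0.38 ± 0.09. The lymphoid list had 1 of 13 higher (Cd79b, by 0.55 ± 0.14, a call lost when any of 8 mice was left out, with limma adjusted p up to 0.0806). The megakaryocyte list had 3 of 8 higher, among them Itgb3 by 0.96 ± 0.14. The endothelial list had 3 of 11 higher and 2 lower, Pecam1 rising by 1.14 ± 0.16 and Kdr falling by 0.63 ± 0.10. For hepatocytes 0 of 11 passed by limma, 0 had an unadjusted p below 0.05, and 10 sat at the ceiling on every array. The part of any of these cells in the receptor signals was not tested.

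The genes that carry the receptor signal were read from a list of adaptors, kinases, phosphatases and CARD9 complex genes. Of 24 measured, 13 rose, 0 fell and 11 did not pass (5.81% of all genes rose and 8.26% fell). The median was 0.59, and 14 were not well above background on any array. Fcer1g, the FcRγ chain used by dectin-2, Mincle and MCL, lay between 5.93 and 7.10 in WT and between 8.25 and 14.53 in KO, without overlap. It rose by 4.86 ± 0.50 (SE, adjusted p = 0.000794 with limma), 6.58 in females and 3.13 in males. Tyrobp, the related adaptor DAP12, rose by 2.56 ± 0.53, and Lcp2, the scaffold SLP-76, by 3.20 ± 0.37. Syk, not well above background on any array, rose by 0.98 ± 0.17 (adjusted p = 0.00706 with limma).

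Other signalling genes of the list that rose were Vav1 by 1.32, Fgr by 1.21, Plcg2 by 0.74, Btk by 0.69, Prkcd by 0.68 and Vav3 by 0.52. The phosphatase gene Inpp5d rose by 0.67 and the NF-kB genes Rel and Relb by 0.74 and 0.22. Of these, Fgr, Plcg2, Btk, Vav3, Inpp5d and Relb were not well above background on any array, so that their sizes are not exact. The Rel difference was 1.51 in females and -0.03 in males, and without a term for sex Rel did not pass (limma adjusted p = 0.213). The 3 genes of the CARD9 complex did not pass, Card9 at 0.12 (limma adjusted p = 0.199), Bcl10 at 0.12 (limma adjusted p = 0.376) and Malt1 at -0.01 (limma adjusted p = 0.965). None of the 3 was well above background on any array, so a lack of change cannot be read from them. Of the phosphatases bound by inhibitory motifs, Ptpn6 differed by 0.73 ± 0.26 (adjusted p = 0.114 with limma) and did not pass. The Plcg2 call was lost when WT male 17, 23 or 33 or WT female 27 or 38 was left out (limma adjusted p up to 0.0693), and the Relb call after quantile normalization between arrays (limma adjusted p = 0.153).

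Of 18 cytokine, chemokine and other genes that these receptors induce in myeloid cells, 2 rose, Tnf by 0.40 ± 0.05 and Ccl3 by 0.91 ± 0.16, and 16 did not pass, with a median of 0.08 (5.81% of all genes rose). Of the 18, 15 were not well above background on any array, Tnf and Ccl3 among them, so that induction of most of the list was not measurable here. Cxcl1, a neutrophil chemokine, differed by 1.99 ± 0.76 (adjusted p = 0.142 with limma), with 3.76 in females and 0.22 in males, and passed without female 40 (2.74, adjusted p = 0.00474 with limma). Nlrp3 differed by 0.15 ± 0.05 (adjusted p = 0.0903 with limma).

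**Figure D4:**
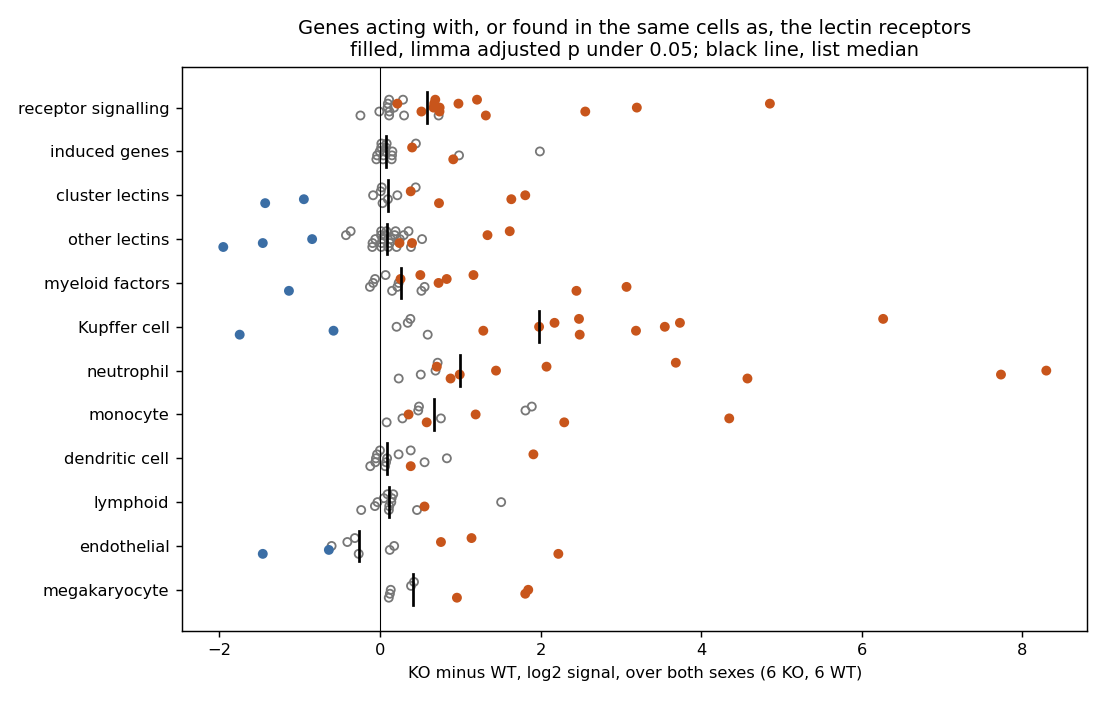
KO minus WT difference in log2 signal over both sexes (6 KO and 6 WT livers) for each gene of 12 lists; filled points have an adjusted p below 0.05 in the limma fit, and the black line is the median of a list. The signalling list is shifted to the right, with a median of 0.59 and Fcer1g at 4.86, while the induced genes, 15 of 18 of which were not well above background on any array, have a median of 0.08.

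The growth and transcription factors of the myeloid lineage had 7 of 17 genes higher and 1 lower (5.81% of all genes rose and 8.26% fell). Their median was 0.26, and 8 were not well above background on any array. Spi1, which encodes PU.1, rose by 2.45 ± 0.24 (adjusted p = 0.000695 with limma) and Csf1r, the macrophage growth factor receptor, by 3.07 ± 0.48, without overlap of the genotypes. Csf2ra rose by 0.83 ± 0.11 and Runx1 by 0.50 ± 0.08. The gene that fell was Cebpa, by 1.13, a factor that hepatocytes also use (named after its value was seen).

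By RefSeq gene order, 6 of the family lie in the dectin-2 cluster and 2, Clec12a and Clec7a, in the dectin-1 cluster. In the dectin-2 cluster the order was Clec4a1, Clec4a3, Clec4a4, Clec4b1, Clec4a2, Clec4b2, Clec4n, Clec4d and Clec4e. Clec4a4 rose by 0.74 ± 0.10 (adjusted p = 0.00185 with limma) and Clec4b1 by 1.64 ± 0.29 (adjusted p = 0.00658 with limma), with Clec4a4 not well above background on any array and Clec4b1 on 1 KO array alone, so that these sizes are not exact. Clec4b2, next to them, differed by 0.22 ± 0.06 and did not pass (adjusted p = 0.0567 with limma). The flanking gene Necap1, a clathrin adaptor gene without a lectin domain, fell by 0.55 ± 0.13 (adjusted p = 0.0279 with limma), and C3ar1 beside it differed by 0.48 ± 0.21 (adjusted p = 0.206 with limma).

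Between Clec12a and Clec7a the picture was mixed. Clec1b, encoding the podoplanin receptor CLEC-2 of platelets and of Kupffer cells, rose by 1.81 ± 0.35 (adjusted p = 0.0104 with limma) from levels well above background on all 12 arrays. Clec9a, a receptor for dead cells on cross-presenting dendritic cells, rose by 0.38 ± 0.09 below the background threshold, and did not pass when WT male 17 or 23 or KO male 18 was left out (limma adjusted p up to 0.0552) or after quantile normalization (limma adjusted p = 0.0611). Clec12b (0.03) and Clec1a (-0.08) did not pass (limma adjusted p = 0.833 and 0.590).

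The list called cluster lectins held 13 other lectin genes, those of both clusters and some of the Clec2 family. Of these, 4 rose and 2 fell (5.81% of all genes rose and 8.26% fell). The median was 0.10, and 10 were not well above background on any array. The 2 that fell, Clec2d and Clec2h, belong to the natural killer receptor ligand family and lie in neither cluster by RefSeq gene order. Clec2d fell by 1.43 ± 0.37 (adjusted p = 0.0382 with limma), by 3.03 in females with 0.18 in males, and lost the call when WT female 27 or 38, KO male 19 or 39 or KO female 13 or 69 was left out (limma adjusted p up to 0.0927). Clec2h fell by 0.95 ± 0.17 below the background threshold. With no term for sex, neither passed (limma adjusted p = 0.377 and 0.181).

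**Figure D5:**
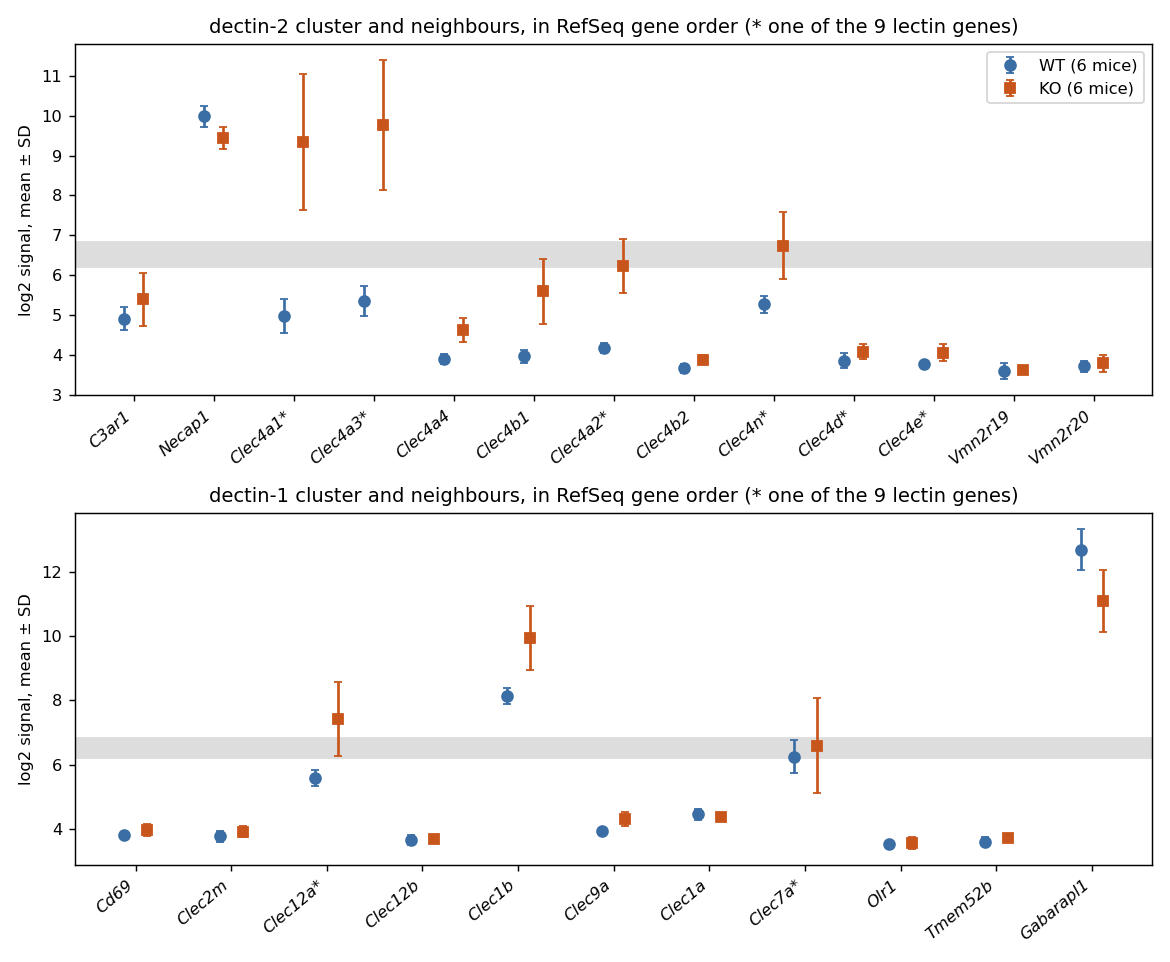
Mean ± SD of the log2 signal in WT (circles, 6 mice) and KO (squares, 6 mice) for the genes of both lectin clusters and their neighbours, in RefSeq order, with the 95th percentile of the negative controls as a grey band. Clec4a1 and Clec4a3 stand out in the dectin-2 cluster with KO means of 9.34 and 9.77, while Clec4d and Clec4e at the other end, and Clec7a in the dectin-1 cluster, have overlapping genotypes.

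Other C-type lectins of leukocytes, endothelium and hepatocytes moved in both directions. Of 30 measured, 4 rose, 3 fell and 23 did not pass (5.81% of all genes rose and 8.26% fell), with a median of 0.09, and 18 were not well above background on any array. Cd72, an inhibitory lectin of B cells also found on macrophages, rose by 1.62 ± 0.28 and Ly75, an endocytic receptor not well above background on any array, by 0.40 ± 0.07. The sinusoidal endothelial lectin Clec4g fell by 1.46 ± 0.26 (adjusted p = 0.0077 with limma) and Asgr2, a subunit of the hepatocyte asialoglycoprotein receptor, by 1.95 ± 0.28 (adjusted p = 0.00267 with limma).

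The protein-coding genes whose profile was most like the mean of the 9 receptors were ranked among 19232. Over the 12 arrays they were Adgre4, Ms4a6c, Pld4, Nckap1l, Marco and Lcp2, with Pearson r between 0.992 for Lcp2 and 0.996 for Adgre4. The arrays fall into separate genotype groups, so this r mostly restates the genotype difference. Over the residuals from the 4 group means they were Tm6sf1 (r = 0.996), Pole2 (0.990), Pirb (0.986), Nckap1l (0.985), Exoc6b (0.981) and Cd180 (0.980). Nckap1l, a subunit of the blood-cell WAVE complex, was in both sets. Leaving out KO male 18 and KO female 40, the arrays farthest from their group means, the residual r was between 0.928 for Cd180 and 0.988 for Tm6sf1. Pole2 and Exoc6b did not differ with genotype beyond the threshold (0.03 and -0.15, limma adjusted p = 0.815 and 0.204), so their likeness lies in how mice within a group varied.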

How the data were processed

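Each of 12 livers was hybridised to its own array. The log2 signal of each feature was used as deposited. The submitters' processing notes name Transcriptome Analysis Console as the authors' tool. How background was corrected and signals were normalized and summarised, and the build, are not stated in what was used here. The median array signal lay between 3.76 and 3.89, and all arrays shared a ceiling of 19.93, above the 16 of a 16-bit scanner, for which no source used here gives the step; folds are those of the deposited scale. Their number limits the precision.

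The 6732 control features were left out of the tests. Of 65956 transcript features, 31280 had 1 symbol, 1470 several and 33206 none in the platform annotation; old symbols were updated through the RefSeq table, which held 30716 of the 30718 genes, and features with several symbols were not named. A gene's value is that of its feature of highest mean. Means of 4 groups were fitted with limma 3.58.1 in R 4.3.3 (lmFit, eBayes, 8 residual degrees of freedom) and p-values adjusted by Benjamini-Hochberg over all features, threshold 0.05. The fit was tested on simulated data. Array measures were compared by exact permutation within sex (400 arrangements, two-sided). Other steps used Python 3.11.15 and pandas 2.3.3.

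The 9 genes and the 13 lists were chosen with earlier results of these data known. Genes named are the 9; up to 12 passing genes of the signalling and cluster lists by smallest p; up to 4 of each other list; the label checks; and the 6 genes most like the family by each measure. Any other name was picked with its value known. This is said beside some of them, and it also holds for Prkcd, Card9, Bcl10, Malt1, Ptpn6, Clec4b2, Clec12b, Clec1a, Necap1 and C3ar1. Alternatives were the scale between arrays, the features tested, the feature per gene, covariates, eBayes trend, array weights, a floor at the negative controls, and leaving out mice.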

Additional observations from a re-analysis of the deposited data

Results flagged for a closer look

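Clec7a in the KO livers was singled out because KO female 40 read 9.58, with a gap to the next KO liver of 0.837 of the whole KO range, above the 0.625 that Dixon's rule sets for 6 samples. The same mouse had the highest mean level of several lists, among them the Kupffer cell (11.22), monocyte (7.58), dendritic cell (5.48), lymphoid (4.89), megakaryocyte (5.88), receptor signalling (6.63) and myeloid factor (7.41) lists, and their part in the Clec7a value was not tested. Cd207 in the WT livers was singled out because WT female 27 read 4.94, with a gap of 0.633 of the WT range; this value was not well above background. Chance gives such a sample in about 1 of 20 groups, and 18 groups of 6 livers (9 genes in each genotype) were examined.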

How the results depend on the processing

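No paired analysis was possible because no animal number occurs in more than 1 group. With only features above the negative controls on average, 4 of the 9 receptors remained and their median KO minus WT was 4.004 (3.01 in males, 4.99 in females). These 4 had no WT liver well above background and passed through their KO signal, so this higher median follows from the filter. Fewer genes were then tested. Genes called were 5 for receptor signalling, 0 of 0 tested for induced genes, 2 for cluster lectins and 4 for myeloid factors. With the poly-A level as a covariate, 3 features and 0 genes of the signalling, induced, cluster lectin, other lectin and myeloid factor lists were called by limma. At an unadjusted limma p below 0.05 these lists held 4, 2, 2, 4 and 5 genes, and the share of all genes at that cut was not counted. Clec4d was -0.15 in this fit, and poly-A level and genotype went together. Without a term for sex, 4 other lectins were called in place of 7; the cause was not tested. With signals raised to the negative controls, the receptors' median was 0.74 (1.13 in females), by construction.

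Leaving out each mouse in turn, the receptors' median ranged from 1.497 to 2.01, in males from 0.89 (without KO male 18) to 1.64 and in females from 1.65 (without KO female 40) to 2.68, and 6 to 7 receptors did not overlap. Features called ranged from 4553 to 6599. Receptors called were 0 to 1 for female minus male, the 1 being Clec4a3 without KO male 18. Quantile normalization, centring on array medians, the mean over features, the eBayes trend and array weights left each count of those 5 lists within 1.5 times and each receptor's direction as reported. Of the marker lists, endothelial calls went from 5 to 8 under quantile normalization and with only features above the negative controls, and to 3 without a term for sex, while dendritic calls went from 2 to 1 under quantile normalization. Relb lost its call under quantile normalization (adjusted p = 0.153 with limma), centring (0.0603) and without a term for sex (0.0785). Leaving out KO male 19 and KO female 40 together was chosen after seeing the data; the receptors' median was then 1.65, and Clec7a was -0.14. Signals below the negative controls limit Clec4d, Clec4e and the WT side of 8 receptors to bounds.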
